A study of Mus musculus with 4 samples.

Results

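Interferon-inducible guanylate-binding proteins (GBPs) and immunity-related GTPases (IRGs) were followed in myeloid-derived suppressor cells (MDSCs), immature neutrophil-like and monocyte-like cells that expand with a tumor. The genes were taken by their symbols, not by a threshold on measured values, though earlier results of these data were known. They made up 10 of the 53465 genes listed. The 10 were 6 GBP genes (Gbp2, Gbp3, Gbp4, Gbp5, Gbp7 and Gbp9) and 4 IRG genes (Irgm1, Irgm2, Igtp and Iigp1). All 10 had enough counts to be tested. Male BALB/c mice, 6 weeks old, carried 4T1 breast cancer cells injected under the skin, and MDSCs were sorted from their spleens on magnetic columns with an antibody to Gr-1, which recognises both Ly-6G and Ly-6C. The control group was kept for 6 h in control medium and the EGCG treatment group for 6 h with 5 μg/mL EGCG, a polyphenol of green tea, so that both groups share the tumor, the sort and the culture. There were 2 libraries in each group. The sample labels put the sacrifice at day 21 after the injection, whereas the methods give an earlier day, and neither says if replicates were separate mice or separate wells of the same cells. The p values therefore measure only the spread between these libraries, which may be technical.

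GBPs and IRGs are GTPases that bind to membranes and are among the genes most strongly induced by interferon gamma, and less strongly by type I interferons. In macrophages and other infected cells they gather on the vacuoles of intracellular bacteria and protozoa, open them, and help cytosolic sensors such as caspase-11 and AIM2 to detect the contents. Their promoters respond to interferons through gamma-activated sites (GAS) and through interferon-stimulated response elements (ISRE), which are bound by complexes that hold STAT2 and IRF9 and also by IRF1. The levels of these genes are therefore widely used as a readout of interferon signaling in myeloid cells.

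The members lie in a few clusters of related genes (GRCm38). Gbp5, Gbp7, Gbp3 and Gbp2 stand in this order on the plus strand of chromosome 3, from 142493978, where Gbp5 begins, to 142638008, where Gbp2 ends. Gbp9 (105077630 to 105139539) and Gbp4 (105115767 to 105139586) overlap on the minus strand of chromosome 5 and have 60 exonic bases in common. On chromosome 11, Irgm1 spans 48861968 to 48871683 on the minus strand, and Igtp (58199556 to 58207591) overlaps the annotated span of Irgm2 (58199618 to 58222782) on the plus strand, with 162 exonic bases in common. The position of Iigp1 is given with its values.

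RefSeq (GRCm38.p6) gave promoter windows, from 250 bases before to 50 bases after the start, for 7 of the 10 members: Gbp2, Gbp3, Gbp5, Gbp7, Irgm1, Irgm2 and Igtp. They were searched on both strands for an ISRE core, GAAANNGAAA, and for a GAS core, TTCNNNGAA. All 7 members had an ISRE core, against 3.99% of the 27025 genes with a window of this length, and 4 of the 7 (Gbp5, Gbp7, Irgm2 and Igtp) also had a GAS core, against 9.55%. A match is a description of the letters and not a measured binding site. The 120 bases that precede the start of each of these genes are shown because they carry most of these matches, which are in capitals: Gbp2 (chr3:142620543-142620662), Gbp3 (chr3:142559924-142560043, the first of its annotated starts), Gbp5 (chr3:142496814-142496933) and Gbp7 (chr3:142530216-142530335) on the plus strand, Irgm1 (chr11:48871421-48871540) on the minus strand, and Irgm2 (chr11:58214857-58214976) and Igtp (chr11:58199436-58199555) on the plus strand.
Gbp2: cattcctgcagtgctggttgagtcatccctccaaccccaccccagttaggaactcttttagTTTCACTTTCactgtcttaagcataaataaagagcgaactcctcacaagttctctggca
Gbp3: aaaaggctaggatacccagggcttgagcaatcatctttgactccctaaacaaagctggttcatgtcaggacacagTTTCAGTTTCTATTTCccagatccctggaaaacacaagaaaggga
Gbp5: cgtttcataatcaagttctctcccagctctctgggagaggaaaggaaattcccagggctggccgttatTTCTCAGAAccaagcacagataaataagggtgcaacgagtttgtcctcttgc
Gbp7: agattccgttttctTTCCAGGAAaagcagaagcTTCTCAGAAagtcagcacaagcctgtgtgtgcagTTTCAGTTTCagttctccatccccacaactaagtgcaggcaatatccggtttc
Irgm1: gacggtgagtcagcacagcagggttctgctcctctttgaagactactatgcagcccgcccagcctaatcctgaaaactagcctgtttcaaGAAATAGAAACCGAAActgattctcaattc
Irgm2: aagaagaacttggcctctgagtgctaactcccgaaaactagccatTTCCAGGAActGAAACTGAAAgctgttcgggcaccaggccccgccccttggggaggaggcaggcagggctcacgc
Igtp: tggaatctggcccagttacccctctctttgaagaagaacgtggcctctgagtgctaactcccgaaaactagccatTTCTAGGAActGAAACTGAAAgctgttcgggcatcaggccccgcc

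The ISRE core began 59 bases before the start in Gbp2, 53 in Gbp7, 64 in Irgm2 and 34 in Igtp. In Gbp3 (45 and 39 bases before the start) and Irgm1 (30 and 24) a pair of overlapping ISRE cores joined into a longer repeat. The second annotated start of Gbp3 had no match. In Gbp5 the ISRE core lay farther upstream, 165 bases before the start, and a GAS core stood 52 bases before it, with a further GAS core at 245 bases. The upstream matches of Gbp5 are shown with up to 10 bases on either side.
Gbp5 ISRE core: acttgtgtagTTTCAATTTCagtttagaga
Gbp5 upstream GAS core: gcaacTTCTGGGAAattagttcag

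Irgm2 and Igtp shared an arrangement that is visible in their sequences above, a GAS core followed after 2 bases by an ISRE core. Only 5 of the 27025 genes (0.0185%) held it, namely Irgm2, Igtp, Tgtp1, Tgtp2 and Gm12185, and all 5 are IRG family genes. The windows of Irgm2 and Igtp were 68.1% identical over 270 bases without gaps, whereas the other pairs among the 21 compared reached at most 35.3%. In Gbp7, the GAS cores began 106 and 87 bases before the start and did not touch the ISRE core.

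**Figure D1:**
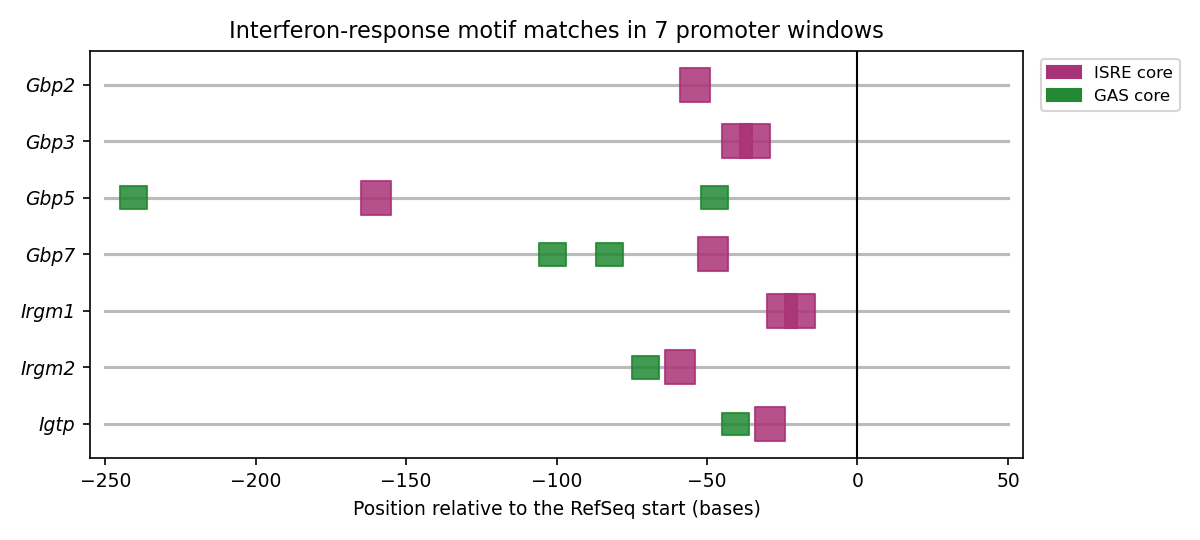
Matches to the ISRE core (tall bars) and the GAS core (short bars) in the promoter windows of 7 members, with the distance from the RefSeq start in bases on the x axis. All 7 genes have an ISRE core, in 6 of them within 64 bases before the start, and in Irgm2 and Igtp a GAS core lies directly upstream of it.

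The 4 libraries held 17767318 to 18390385 counted reads. Of the 53465 genes, 14682 were tested with edgeR's quasi-likelihood test, and a gene was called at an adjusted p (Benjamini-Hochberg, over all tested genes) under 0.05, which 0.150% of the tested genes reached. Levels are in CPM, TMM-scaled read counts made comparable between libraries. The 6 neutrophil markers had a summed level of 45927 to 64152 CPM. Most of it came from S100a8 (14461 to 22838 CPM) and S100a9 (22455 to 31668 CPM), whereas Ly6g was at 943 to 1200 CPM. The 4 monocyte markers summed to 894 to 978 CPM. Such sums rest on the most abundant genes and do not measure shares of cells. The values of both marker sets by group are given with those of the other cell types. In bulk RNA a change in the share of a cell type and a change in the RNA of each cell cannot be told apart. Low counts limited Iigp1 most among the members (15 to 24 counts a library), since the others had 77 counts or more in every library. DESeq2 gave no adjusted p for Iigp1 or for Gbp4 (77 to 111 counts).

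At the level of the whole group, the summed expression of the 10 genes was 266 CPM in control replicate 1, 375 CPM in control replicate 2, 242 CPM in EGCG replicate 1 and 279 CPM in EGCG replicate 2. Control replicate 2 stood above the other 3 libraries, and EGCG replicate 2 was higher than control replicate 1. None of the 10 genes passed the test with edgeR (0 called, also with DESeq2, adjusted p from edgeR from 0.188 for Gbp7 to 0.717 for Gbp4, against 0.150% called over all tested genes). All 10 had a negative log2 fold change, against 49.4% of all tested genes, with a median of -0.29 beside 0.00 over all tested genes and a range from -0.50 to -0.15. At an unadjusted p under 0.05, 3 of the 10 were lower in the EGCG treatment group (Gbp7, Gbp9 and Irgm1) and 0 were higher, against 7.02% lower and 5.22% higher over all tested genes. For 3 of the 10 (Gbp7, Gbp9 and Iigp1) both EGCG libraries lay below both control libraries, against 21.2% of all tested genes. These genes are known to be induced together and some overlap, so that their common sign does not count as 10 separate observations. They were also chosen with earlier results of these data known.

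**Figure D2:**
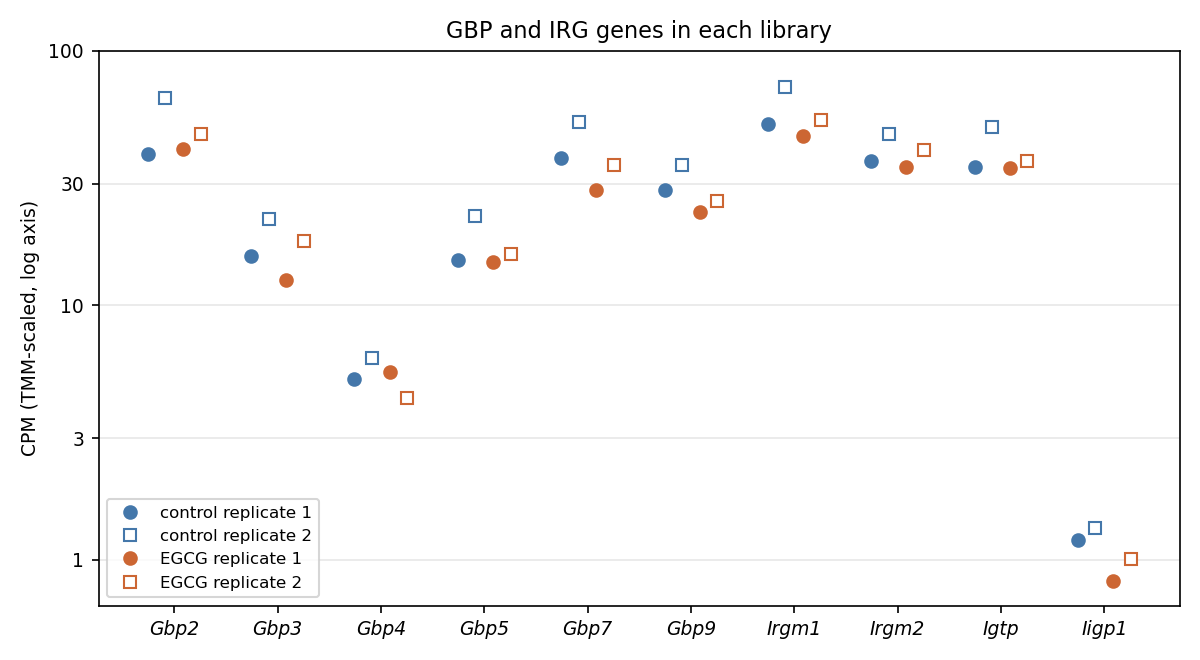
TMM-scaled CPM (log axis) of the 10 genes in each of the 4 libraries, 1 point per library. Control replicate 2 (open blue squares) is the highest library for all 10 genes, whereas control replicate 1 lies close to the EGCG libraries for most of them.

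Per kilobase of exon, Igtp and Gbp2 were the most abundant members. Igtp averaged 21.1 ± 5.32 CPM per kilobase (SD, n = 2) with control medium and 17.7 ± 0.732 with EGCG. Gbp2 averaged 20.9 ± 7.33 and 17.5 ± 1.76 CPM per kilobase, so that these genes were not separated beyond the spread over libraries. Next came Irgm2 (9.49 to 12.8 CPM per kilobase over the 4 libraries), Irgm1 (7.97 to 12.4), Gbp7 (5.04 to 9.32), Gbp9 (4.50 to 6.88) and Gbp3 (3.87 to 6.72), each of which overlapped its neighbor in this order. Gbp5 (2.24 to 3.39), Gbp4 (0.575 to 0.829) and Iigp1 (0.142 to 0.231) followed, each below the range of the gene before it. The scale divides by all annotated exonic bases of a gene, so that a gene with long rarely used exons is placed too low. In this order the genes of the regulatory IRGM proteins, which hold other IRGs inactive on the membranes of the host cell, stood far above the effector Iigp1.

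Gbp7 and Gbp9 had the clearest differences among the GBP genes. Gbp7, whose product supports the killing of intracellular bacteria, was at 37.8 and 52.3 CPM in the control libraries and 28.3 and 35.6 CPM in the EGCG libraries. The groups did not overlap, but EGCG replicate 2 came within a few CPM of control replicate 1. Its mean went from 45.1 ± 10.3 CPM to 31.9 ± 5.13 CPM (SD, n = 2), a log2 fold change of -0.50 (standard error 0.14). The adjusted p from edgeR was 0.188. A processed pseudogene, Gm43802, covers 637 of its exonic bases (11.3%), where reads could have been left out or split. Gbp9, a member of the chromosome 5 cluster, was at 28.3 and 35.6 CPM in the control libraries and 23.3 and 25.8 CPM in the EGCG libraries. Its groups did not overlap either, and edgeR gave it a log2 fold change of -0.38 (standard error 0.12, adjusted p of 0.228). Of the 31-base words in its transcripts, 18.3% also occur in other genes, with the largest shares in Gbp8 and Gbp6.

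The remaining GBP genes overlapped between the groups. Gbp2, a prenylated GBP that docks on pathogen vacuoles and bacteria, was at 39.4 and 65.5 CPM in the control libraries and 41.0 and 47.3 CPM in the EGCG libraries. Control replicate 1 was the lowest of the 4 libraries, and the log2 fold change of -0.25 had a standard error of 0.17 (adjusted p of 0.592 from edgeR). Gbp5, which promotes assembly of the NLRP3 inflammasome, was at 15.1 and 22.5 CPM in the control libraries and 14.8 and 15.9 CPM in the EGCG libraries. In this gene 3 of the libraries were nearly level and control replicate 2 alone was high (log2 fold change of -0.29, standard error 0.16, adjusted p of 0.502). Gbp3 was at 15.6 and 21.9 CPM in the control libraries and 12.6 and 17.9 CPM in the EGCG libraries, so that replicate 2 exceeded replicate 1 in both groups (log2 fold change of -0.30, standard error 0.17, adjusted p of 0.533). Gbp4 was at 5.15 and 6.21 CPM in the control libraries and 5.46 and 4.31 CPM in the EGCG libraries. It was the only member in which EGCG replicate 1 exceeded EGCG replicate 2 (log2 fold change of -0.22, standard error 0.20, adjusted p of 0.717).

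Among the IRG genes, Irgm1 was the most highly expressed by CPM, at 51.4 and 72.2 CPM in the control libraries and 46.3 and 53.5 CPM in the EGCG libraries. Irgm1 encodes a regulatory IRG with roles in autophagy and in the survival of hematopoietic cells exposed to interferon. EGCG replicate 2 lay above control replicate 1, and the mean went from 61.8 ± 14.8 CPM to 49.9 ± 5.09 CPM (SD, n = 2). The log2 fold change of Irgm1 was -0.31 (standard error 0.13), and edgeR gave an adjusted p of 0.368. Igtp, which encodes the regulatory protein Irgm3, was at 35.1 and 50.3 CPM in the control libraries and 34.7 and 36.8 CPM in the EGCG libraries, where control replicate 2 again stood alone (log2 fold change of -0.25, standard error 0.13, adjusted p of 0.476). Irgm2, which restrains activation of caspase-11, was at 36.8 and 47.2 CPM in the control libraries and 35.0 and 40.8 CPM in the EGCG libraries. It had the smallest difference of the 10 genes, a log2 fold change of -0.15 (standard error 0.12, adjusted p of 0.663). Of the 31-base words of Igtp, 15.9% also occur in Irgm2, so that reads of this pair could have been split. Iigp1, an effector IRG that loads onto vacuoles, lies on chromosome 18 from 60376027 to 60392634 on the plus strand. It had 22 and 24 counts in the control libraries and 15 and 18 counts in the EGCG libraries. The groups did not overlap, yet at these counts the log2 fold change of -0.47 had a standard error of 0.37 (adjusted p of 0.662).

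The spread between the control libraries was the main feature of the group. All 10 genes were higher in control replicate 2 than in control replicate 1, against 49.7% of all tested genes, with ratios from 1.11 (Iigp1) to 1.66 (Gbp2) and a median ratio of 1.40 beside 0.999 over all tested genes. All 10 were highest in control replicate 2, which held for 20.1% of all tested genes. In the EGCG libraries, 9 of the 10 were higher in replicate 2 than in replicate 1, against 51.3% of all tested genes, with a median ratio of 1.15. For 7 of the 10 genes the ratio between the control libraries exceeded the fitted fold between the groups, which ran from 1.11 to 1.41. The difference between the groups was thus no larger than the spread between the control libraries for these genes. Gbp7 (a fold of 1.41 against a ratio of 1.38), Gbp9 and Iigp1 were the exceptions. Between the EGCG libraries the ratio was below the fitted fold for Gbp2 (1.15 against 1.19), Gbp5 (1.07 against 1.22), Irgm1 (1.16 against 1.24) and Igtp (1.06 against 1.19). It was above the fold for Gbp3 (1.42 against 1.23) and Irgm2 (1.16 against 1.11), and Gbp4 was lower in EGCG replicate 2.

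Without control replicate 2 the median over the 10 genes was -0.03 on the log2 scale, with 6 genes lower and 4 higher and 0 called with edgeR (smallest adjusted p 0.378), although 1.53% of all genes were called lower in that fit. Leaving out control replicate 1 gave a median of -0.53 and 5 called genes (Gbp2, Gbp7, Gbp9, Irgm1 and Igtp), against 0.472% of genes called lower, and leaving out EGCG replicate 2 gave -0.38 and 3 called genes (Gbp3, Gbp7 and Irgm1), against 1.30%. Leaving out EGCG replicate 1 gave a median of -0.22 and 0 called genes with edgeR (smallest adjusted p 0.253), against 0.588% of genes called lower. In each of these fits the lone library of a group was assumed to vary like the libraries of the other group. When the counts were scaled by library size alone, Gbp7 was called (adjusted p of 0.0391), against 0.919% of genes called lower.

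**Figure D3:**
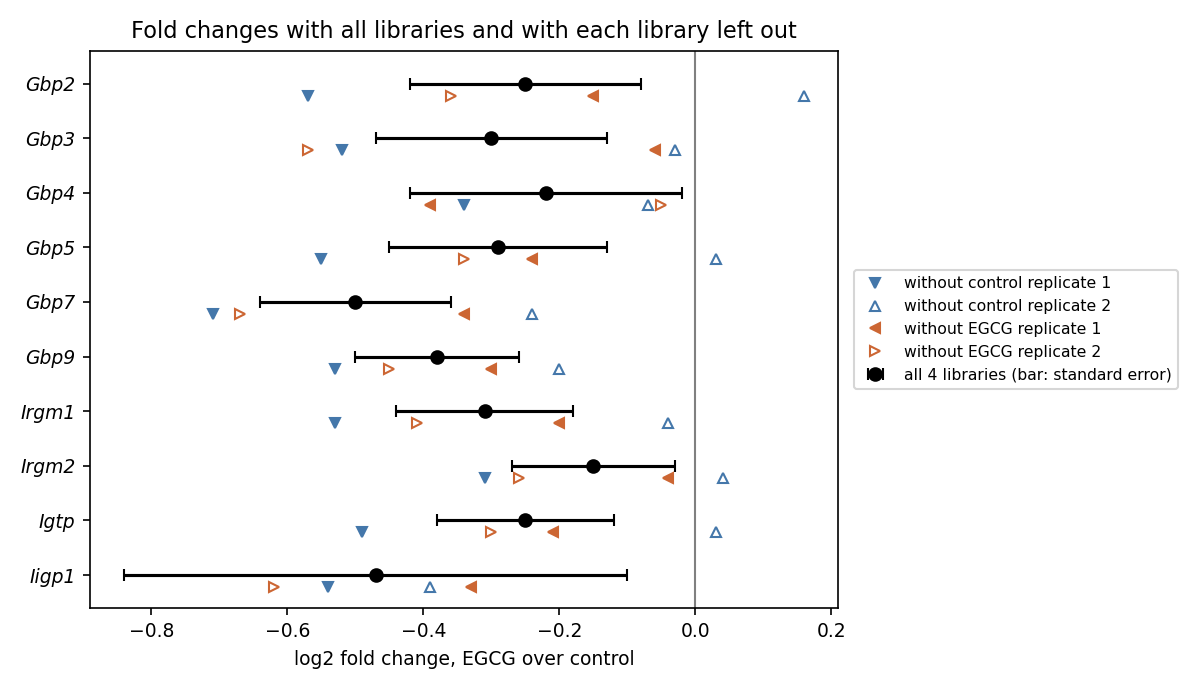
Log2 fold change of EGCG over control for the 10 genes, with all 4 libraries (black points, bars are the standard error) and with each library left out (triangles). Without control replicate 2 (open blue triangles) the values run from -0.39 to 0.16 and 4 genes cross zero, whereas without control replicate 1 (filled blue) all lie between -0.71 and -0.31.

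The related genes outside the group were read in the same way. Of 17 other GBP and IRG genes, 12 were tested, 0 were called, 9 had a negative and 3 a positive log2 fold change, and the median was -0.28. At an unadjusted p under 0.05 from edgeR, 3 of the 12 were lower and 0 higher, against 7.02% and 5.22% of all tested genes. The groups did not overlap for 7 lower genes and 1 higher gene of the 12 (21.2% and 21.5% of all tested genes). Gbp2b, the neighbor of Gbp2 that encodes mouse GBP1, was at 31.4 and 58.9 CPM in the control libraries and 34.9 and 42.4 CPM in the EGCG libraries, the same pattern as Gbp2. Of the 12 tested genes, 6 were higher in control replicate 2 than in control replicate 1 (49.7% of all tested genes), and Gm12250 was also highest in control replicate 2, at 10.0 CPM against 5.64 to 6.34 CPM in the other libraries. The gene 9930111J21Rik1 did not share it, with 18.6 and 18.0 CPM in the control libraries and 13.8 and 13.2 CPM in the EGCG libraries. Its replicates were close and its groups apart, but its log2 fold change of -0.44 (standard error 0.12) missed the threshold in edgeR (adjusted p of 0.162), and 88.9% of its 31-base words also occur in other genes. Tgtp1 (1.81 and 2.46 CPM against 1.43 and 1.51) and Tgtp2 (2.96 and 3.86 against 2.48 and 2.07), the genes that share the spaced GAS and ISRE cores with Irgm2 and Igtp, had non-overlapping groups and log2 fold changes of -0.53 and -0.58 (adjusted p of 0.531 and 0.393). Of their 31-base words, 84.4% and 90.5% also occur in other genes, so that the counts of this pair are uncertain and not separate measurements. Gm12185, which has the same arrangement, had a log2 fold change of 0.04. Among the others with at least 10 counts in every library, the log2 fold change was -0.67 for Gm5431, -0.59 for Gbp8, -0.21 for Irgq, -0.13 for 9930111J21Rik2 and 0.60 for Gbp11, with adjusted p values from 0.401 to 0.617.

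Of the ligands, Ifng and Ifnb1 were read, and both were barely detected. Ifng, which encodes interferon gamma, had 1 count in control replicate 2 and 0 in the other libraries, where a count of 0 allows up to 0.168 CPM. Ifnb1 had 1 and 3 counts in the control libraries and 0 in both EGCG libraries. Their receptors were well expressed. Ifngr1 was at 356 and 411 CPM in the control libraries and 374 and 428 CPM in the EGCG libraries, and Ifngr2 was at 263 and 261 against 277 and 276. Ifnar1 (186 and 185 against 176 and 191 CPM) and Ifnar2 (216 and 216 against 223 and 232 CPM) were measured at similar levels in all 4 libraries. For Ifngr2 and Ifnar2 both EGCG libraries lay slightly above both control libraries, which held for 21.5% of all tested genes. The log2 fold changes of the 4 receptor genes ran from -0.01 (standard error 0.08) to 0.08 (0.07), with adjusted p values of at least 0.712 from edgeR.

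Of the 20 interferon signaling genes, 18 were tested and 0 were called in either direction, with a median log2 fold change of -0.04. At an unadjusted p under 0.05, 5 of the 18 were lower and 0 higher, against 7.02% and 5.22% of all tested genes, and 13 of the 18 were higher in control replicate 2 than in control replicate 1 (49.7% of all tested genes). Stat2, a subunit of the complex that binds ISREs, was at 62.3 and 73.1 CPM in the control libraries and 52.1 and 56.9 CPM in the EGCG libraries, with no overlap (log2 fold change of -0.31, standard error 0.09, adjusted p of 0.221). Jak2, a kinase of the interferon gamma receptor, was at 364 and 407 CPM against 319 and 348 CPM (log2 fold change of -0.21, standard error 0.08, adjusted p of 0.332), and Nlrc5, a transactivator of MHC class I genes, at 18.4 and 21.0 against 13.6 and 18.0 CPM (-0.32, standard error 0.14, adjusted p of 0.378). Jak1, Irf1 and Irf9 had log2 fold changes of -0.01, 0.03 and -0.14. Irf7 and Usp18, interferon targets singled out after their values were seen, had the pattern of the GBP genes: 152 and 207 CPM in the control libraries against 130 and 158 for Irf7, and 27.3 and 43.3 against 26.5 and 28.4 for Usp18. Without control replicate 1, edgeR called 3 of the 18 (Irf7, Usp18 and Stat2), against 0.472% of genes called lower. Without EGCG replicate 2 it called 1 (Irf7, against 1.30%), and it called 0 without control replicate 2 (against 1.53%) or without EGCG replicate 1 (against 0.588%).

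**Figure D4:**
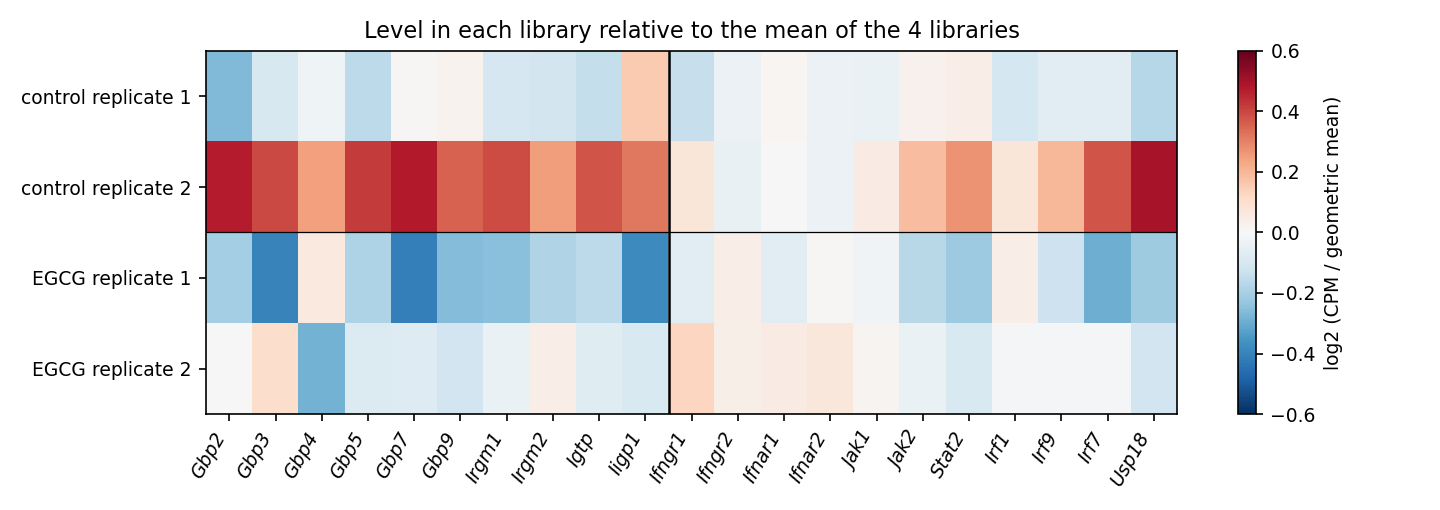
Level of the 10 genes (left of the line) and of 11 interferon signaling genes (right) in each library, as log2 of CPM over the geometric mean of the 4 libraries. Control replicate 2 is high for the members and for Stat2, Irf7 and Usp18, whereas Ifngr2, Ifnar1, Ifnar2 and Jak1 stay close to their mean in every library.

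Other targets of interferon gamma were read beside the group. Of 14 such genes, 12 were tested, 0 were called with edgeR, 2 were lower at an unadjusted p under 0.05 (7.02% of all tested genes), and the median log2 fold change was -0.03. Of the 12, 7 were higher in control replicate 2 than in control replicate 1 (49.7% of all tested genes). Among them Cxcl10, a chemokine gene singled out after its values were seen, was at 18.0 and 30.3 CPM in the control libraries and 14.4 and 25.6 CPM in the EGCG libraries. Cd274, which encodes the inhibitory ligand PD-L1, was at 140 and 135 CPM in the control libraries and 110 and 119 CPM in the EGCG libraries, with control replicate 2 slightly below control replicate 1 (log2 fold change of -0.27, standard error 0.08, adjusted p of 0.188). The 18 partners that act with GBPs and IRGs at vacuoles and in inflammasomes were all tested and 0 were called with edgeR (before adjustment, 1 was lower and 3 were higher at p under 0.05, against 7.02% and 5.22% of all tested genes), and 12 had a positive log2 fold change (median 0.10). Of these 18 partners, 15 were higher in control replicate 2 than in control replicate 1, against 49.7% of all tested genes. Gabarap and Map1lc3b, ubiquitin-like proteins of the autophagy machinery that guides GBPs and IRGs to vacuoles, had log2 fold changes of 0.22 (standard error 0.08, adjusted p of 0.292) and 0.17 (0.08, 0.391), with the EGCG libraries above the controls. Nlrp3, the inflammasome sensor, was at 202 and 200 CPM against 176 and 173 CPM (log2 fold change of -0.20, standard error 0.07, adjusted p of 0.289).

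Markers of other cell types were read beside these values, and the single markers given were picked after their values were seen. At an unadjusted p under 0.05, 2 of 6 macrophage, 4 of 4 endothelial, 1 of 4 monocyte and 1 of 5 dendritic cell markers were lower, and 1 of 6 neutrophil and 1 of 4 B cell markers were higher. Over all tested genes, 7.02% were lower and 5.22% were higher at this p. The 6 macrophage markers summed to 322 and 341 CPM in the control libraries and 270 and 283 CPM in the EGCG libraries. All 6 had a negative log2 fold change (median -0.25). Most of this sum came from Adgre1, at 196 and 228 against 181 and 170 CPM. Adgre1 alone of the 6 was higher in control replicate 2 than in control replicate 1. The 4 endothelial markers summed to 117 and 129 CPM against 96.6 and 101 CPM, and all 4 were negative (median -0.66). Most of this sum came from Pecam1, at 100 and 111 against 87.3 and 89.0 CPM. Cdh5 was at 6.90 and 6.38 against 3.25 and 4.03 CPM. The 6 neutrophil markers summed to 45927 and 55786 CPM in the control libraries and 64152 and 55792 CPM with EGCG, and 5 of the 6 had a positive log2 fold change (median 0.13). Among them S100a8 was at 14461 and 18163 CPM against 22838 and 19477 CPM, with separate groups (log2 fold change of 0.38, standard error 0.12, adjusted p of 0.228 from edgeR). The 4 monocyte markers summed to 978 and 943 CPM against 896 and 894 CPM, with 3 of the 4 negative (median -0.07).

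The B cell markers summed to 303 and 321 CPM against 349 and 315 CPM, with 3 of 4 positive (median 0.13), and Ms4a1 was separate between the groups at 40.1 and 46.8 against 57.3 and 47.6 CPM (adjusted p of 0.336 from edgeR). Of the 6 T cell markers, 4 were positive (median 0.12). The sum of the 6 was at most 117 CPM, most of it from Cd3d (75.2 to 90.2 CPM). The NK cell markers summed to 6.08 to 7.11 CPM and the dendritic cell markers to 10.8 to 12.3 CPM over the 4 libraries, and no marker was at 0 in any library. Between the control libraries, replicate 2 was above replicate 1 for 5 of 6 neutrophil, 1 of 4 monocyte, 1 of 6 macrophage, 2 of 4 endothelial, 3 of 4 B cell and 3 of 6 T cell markers. The same held for 2 of 5 dendritic cell and 2 of the 2 tested NK cell markers, and for 49.7% of all tested genes. None of these markers was called with edgeR, and their part in the levels of the GBP and IRG genes was not tested.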

How the data were processed

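RNA-seq was performed on MDSCs of 2 control and 2 EGCG libraries. Reads had been mapped by the authors to GRCm38 using STAR (2.6.0c), and they deposited whole-number counts per gene, made with featureCounts (1.6.2) on Ensembl release 91 without strand and not normalized. Reads of overlapping genes are thus uncertain. All 4 columns were used (0 unmapped), and 0 lines named no gene.

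The 10 genes and all gene lists were chosen with earlier results of these data known. Genes were filtered with filterByExpr (minimum count 10), scaled by TMM and compared in edgeR 4.0.16 (quasi-likelihood test, the study's own choice, in its legacy form). Adjusted p values (Benjamini-Hochberg) cover all 14682 tested genes. The standard error is the log2 fold change divided by the square root of F. With 2 libraries in each group the precision is limited. Counts of 3 were taken as the floor.

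All 10 members are named, and genes of the 4 other gene lists (related family, interferon signaling, other interferon-gamma targets, partners) where they are ligands, receptors, JAK1, JAK2, STAT2, IRF1 or IRF9, pass the threshold, have an unadjusted p under 0.05 with separate groups, or, in the families, reach 10 counts in every library. Irf7, Usp18 and Cxcl10 fall outside this rule and were named after their values were seen. A gene of the interferon signaling list is not reported here by name. Markers were grouped by cell type and are not covered by it. Positions, exonic lengths and transcript words (31 bases) came from GENCODE M21 (GRCm38, 53360 of 53465 identifiers matched) and promoters from RefSeq (GRCm38.p6), which matched 7 members. Alternatives were other filters, scalings and edgeR fits, DESeq2 1.42.0, a length correction (loess, span 0.4), a replicate block, and leaving out each library. R 4.3.3, Python 3.11.15, pandas 2.3.3 and matplotlib 3.10.9 were used.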

Additional observations from a re-analysis of the deposited data

How the results depend on the processing

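Under the 10 alternatives that keep all 4 libraries, every tested member stayed lower with EGCG and the median log2 fold change of the members ran from -0.32 to -0.28. The number of members called was 0 in 9 of the 10 and 1 (Gbp7) with library size only, where the median of all genes was -0.03. Iigp1 could not be tested with the filter of 1 CPM in all libraries, and DESeq2 gave no adjusted p for Gbp4 and Iigp1. With the replicate block, 0 members were called, the median was -0.28 and the smallest adjusted p was 0.0601 (Gbp7). No label says what the replicate numbers share, and the deviations of same-numbered libraries correlated at 0.034 across 14682 genes, so that the numbers were not taken to pair the libraries. Among the members, replicate 2 was above replicate 1 for 10 of 10 in the control group and 9 of 10 with EGCG.

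With a library left out, the members called ran from 0 to 5, the median from -0.53 to -0.03, and the interferon signaling genes called from 0 to 3. The sign of 4 genes changed, each without control replicate 2. The log2 fold change ran from -0.57 to 0.16 for Gbp2, -0.55 to 0.03 for Gbp5, -0.31 to 0.04 for Irgm2 and -0.49 to 0.03 for Igtp. The cause was not tested. Non-overlapping members numbered 3 under every scaling tried. Depth limits Iigp1 most, with 15 to 24 counts.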
